A study of Mus musculus with 2 samples.

Results

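The 38 genes described here encode the proteins of folate and one-carbon metabolism, taken as a list of mouse symbols that covers folate uptake and retention, the cytosolic and mitochondrial arms of the folate cycle, thymidylate and purine synthesis, the methionine cycle, transsulfuration, and the synthesis and cleavage of serine and glycine. All 38 symbols matched an Ensembl gene among the 43346 mouse genes of the deposited tables. The rule uses gene names and no measured value, although the list was chosen with earlier results of these data known. Their levels were read in total RNA-seq of the mouse embryonic facial prominence, the tissue from which the jaws, nose and palate grow. The single group consisted of healthy B6NCrl embryos at 12.5 days, with no treatment or altered allele named in the labels. Replicate 1 pooled 120 embryos and replicate 2 pooled 88 embryos, each with males and females together, and both pools carry the same donor identifier. Each library was made from 10 ng of RNA with ERCC spike-in RNAs added, so the spread given below is the spread between 2 pools.

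Folate is the carrier of single carbon units. It enters the cell through transporters and receptors, is trapped there by added glutamate residues, and picks up its carbon mainly from serine. In the mitochondrion that carbon is oxidised to formate, which returns to the cytosol and is used for thymidylate, for purine rings and for the methyl group of methionine. Methionine is then activated to S-adenosylmethionine, the methyl donor for DNA, RNA and protein. Folate supply is known to matter for closure of the neural tube and for the neural crest, which gives rise to most of the facial mesenchyme.

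The depth was 27890681 expected counts in replicate 1 and 39969716 in replicate 2, and the members together received 57261 and 83467 of these. Levels are given in TPM, the share of all transcripts after division by length, which allows comparison between genes. For an effective length of 1000 bases, 3 counts, the most that a count of 0 leaves possible, stood for 0.172 TPM in replicate 1 and 0.121 TPM in replicate 2. These limits cover counting error only. The libraries had a Pearson correlation of 0.998 across 21461 protein-coding genes on the log2(TPM + 1) scale, where genes are not independent replicates, and differed by more than sampling noise (chi-square per degree of freedom 5.82 over 17821 genes). All 5 facial mesenchyme markers and all 4 surface epithelium markers reached 10 TPM in both libraries, with Msx1, a homeobox factor of facial mesenchyme, at 336 and 325 TPM. In a bulk tissue, fewer cells of a type and less RNA per cell cannot be told apart.

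Most of the pathway was present in the facial prominence, and the undetected members were enzymes best known from liver. Of the 38 members, 31 reached 1 TPM in both libraries, where 61.8% of protein-coding genes did so. A level of 10 TPM in both libraries was reached by 23 members, against 41.6% of protein-coding genes. Without the genes listed at 0 TPM in both libraries, the shares of protein-coding genes were higher, at 75.3% and 50.7%. The members under 1 TPM in both libraries numbered 7, namely Folr1, Folr2, Gnmt, Ftcd, Mat1a, Bhmt2 and Bhmt. With the posterior mean TPM, a further estimate in the tables, 32 members reached 1 TPM, as Folr1 passed it. Mat1a, Bhmt2 and Bhmt had under 3 expected counts in both libraries and are given as not detected, a state shared by 23.1% of protein-coding genes. The median of the members' mean levels was 17.4 TPM, against 5.22 TPM for all protein-coding genes. Together the members made up 0.156% of all TPM in replicate 1 and 0.160% in replicate 2.

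**Figure D1:**
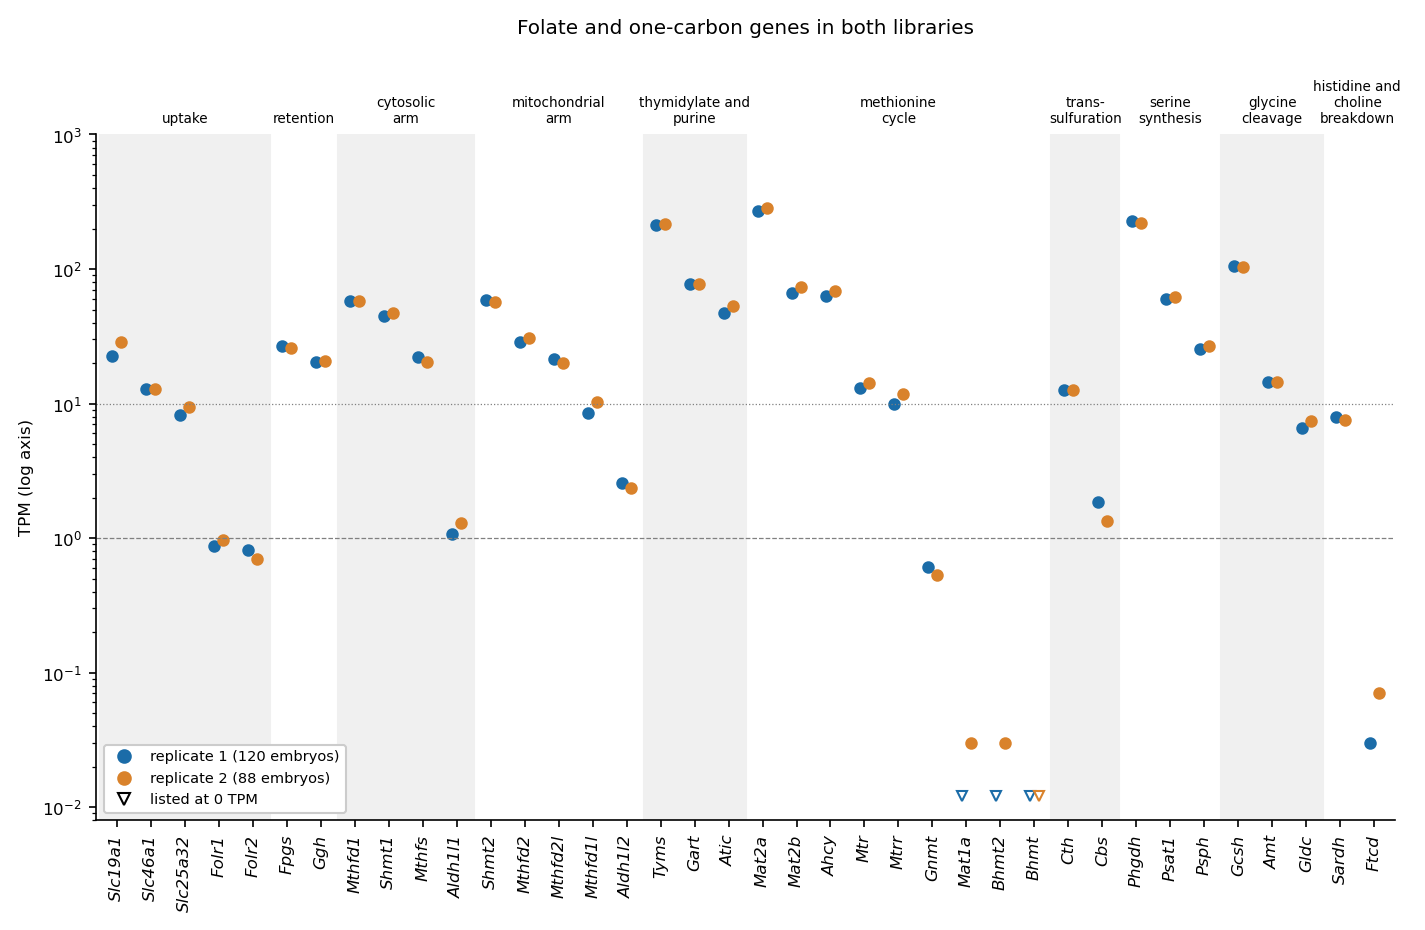
Level of each of the 38 genes in TPM on a log axis, grouped by role, with 1 point per library; open triangles stand for a gene listed at 0, and the lines mark 1 and 10 TPM. Mat2a, Phgdh and Tyms had the 3 highest TPM values in both libraries, while Mat1a, Bhmt2 and Bhmt lay at or near 0.

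Mat2a, the catalytic subunit of the methionine adenosyltransferase found outside the liver, had the highest level of the 38 members. Its TPM was 271 in replicate 1 and 283 in replicate 2 (277 ± 8.25, SD, n = 2), which placed it at rank 476 of 21461 protein-coding genes. Phgdh, the first enzyme of serine synthesis, followed with 229 and 220 TPM (225 ± 5.95, rank 609). Tyms, which methylates dUMP to make thymidylate, had 212 and 218 TPM (215 ± 4.40, rank 650). The ranges of Phgdh and Tyms did not overlap, although they lay close together. Next in order came Gcsh, the carrier protein of the glycine cleavage system, with 105 and 103 TPM (104 ± 1.47, rank 1547). Below it stood Gart at 76.9 TPM, Mat2b at 70.1, Ahcy at 65.9, Psat1 at 60.8, and then Shmt2 and Mthfd1 at 57.5 each, all as means. Among neighbours in the order, ranges overlapped between Mat2b and Ahcy, Shmt2 and Mthfd1, Fpgs and Psph, Psph and Slc19a1, Mthfs and Mthfd2l, Mthfd2l and Ggh, Mtrr and Mthfd1l, and Mthfd1l and Slc25a32. They also overlapped among Ftcd, Mat1a, Bhmt2 and Bhmt. All other neighbours in the order had ranges that did not overlap.

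The promoter sequences of 5 members are shown because these genes span the range of levels: the 3 highest members, Shmt2 as the entry to the mitochondrial arm, and Gnmt as a member under 1 TPM. Each sequence is the 250 bases before the RefSeq start in build GRCm38.p6, written 5′ to 3′ on the strand of the gene. Capitals mark every match on either strand to CCAAT, the GC box GGGCGG, the TATA box TATAAA, the E-box CACGTG, the core GCATGCG of the NRF1 motif or the amino acid response element TGATGNAAT. Adjoining or overlapping matches appear as 1 run of capitals.
The Mat2a window is chr6:72439557-72439806 on the minus strand.
Mat2a: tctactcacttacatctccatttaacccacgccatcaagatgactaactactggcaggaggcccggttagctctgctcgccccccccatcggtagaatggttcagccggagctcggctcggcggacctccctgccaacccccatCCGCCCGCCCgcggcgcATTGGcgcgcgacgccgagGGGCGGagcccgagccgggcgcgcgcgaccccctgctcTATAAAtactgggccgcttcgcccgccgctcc
The Phgdh window is chr3:98339970-98340219 on the minus strand.
Phgdh: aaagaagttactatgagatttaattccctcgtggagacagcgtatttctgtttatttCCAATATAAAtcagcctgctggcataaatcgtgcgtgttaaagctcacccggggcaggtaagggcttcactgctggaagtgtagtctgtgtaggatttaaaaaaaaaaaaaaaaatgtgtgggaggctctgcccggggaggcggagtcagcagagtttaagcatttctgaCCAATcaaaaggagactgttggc
The Tyms window is chr5:30073626-30073875 on the minus strand.
Tyms: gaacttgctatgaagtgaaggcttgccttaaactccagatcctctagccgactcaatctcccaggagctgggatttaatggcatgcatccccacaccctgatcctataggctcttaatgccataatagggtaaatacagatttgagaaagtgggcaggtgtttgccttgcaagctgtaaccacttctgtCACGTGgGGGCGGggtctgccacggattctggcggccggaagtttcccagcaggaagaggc
The Shmt2 window is chr10:127522445-127522694 on the minus strand.
Shmt2: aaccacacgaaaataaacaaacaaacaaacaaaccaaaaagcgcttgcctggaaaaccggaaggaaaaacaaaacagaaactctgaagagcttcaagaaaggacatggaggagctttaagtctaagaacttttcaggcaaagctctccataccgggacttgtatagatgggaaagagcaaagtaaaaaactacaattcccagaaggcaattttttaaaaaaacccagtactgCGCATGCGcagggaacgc
The Gnmt window is chr17:46729166-46729415 on the minus strand.
Gnmt: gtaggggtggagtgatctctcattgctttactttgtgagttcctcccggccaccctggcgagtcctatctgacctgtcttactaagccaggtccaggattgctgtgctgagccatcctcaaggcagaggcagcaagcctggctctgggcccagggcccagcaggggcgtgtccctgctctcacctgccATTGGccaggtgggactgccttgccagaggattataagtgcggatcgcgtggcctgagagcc

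The 3 members with the highest levels had unlike promoter windows. The Mat2a window held 29 CpG dinucleotides, a TATAAA that began 32 bases before the start, 3 GC boxes and a CCAAT box on the reverse strand. The Phgdh window held 7 CpG and a CCAAT box that began 23 bases before the start. Another CCAAT box, which began 193 bases before the start, ran into a TATAAA. In GENCODE M21 the last 21 bases of this window lie in a Phgdh exon, which the nearer CCAAT box runs into. In the Tyms window there were 6 CpG, with a CACGTG and a GGGCGG beginning 61 and 54 bases before the start. The Shmt2 window, with 7 CpG, carried GCATGCG on both strands as overlapping matches that began 18 and 17 bases before the start. This core was found in 2 of the 32 members that could be matched (6.25%), against 4.41% of the 16317 protein-coding genes matched. Counted by window, it was found in 3.02% of all 32851 promoter windows. Gnmt had 6 CpG and a reverse CCAAT 62 bases before the start. Over the 22 matched members with a mean of 10 TPM or more, 16 had a CCAAT box (72.7%), against 41.5% of the 7289 protein-coding genes at that level and 33.8% of all windows. GC boxes occurred in 18 of these 22 (81.8%), against 67.0% at that level and 32.7% of all windows. TATAAA was present in 12.4% of all windows and CACGTG in 6.02%. The amino acid response element occurred in 0 member windows, against 0.754% of the protein-coding genes matched and 0.816% of all windows. These matches describe letters in a window and were not tested as sites.

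Folate uptake was represented mainly by its carriers. Slc19a1, the reduced folate carrier, had 22.7 and 28.8 TPM (25.7 ± 4.29). Slc46a1, the proton-coupled folate transporter, had 12.8 TPM in both libraries. Slc25a32, which carries folate into the mitochondrion, had 8.25 and 9.43 TPM. The folate receptors, which bind folate at the cell surface and bring it in by endocytosis, were both under 1 TPM in the TPM column. Folr1 had 0.88 and 0.97 TPM from 10 and 18 expected counts, but 2.53 and 2.22 in the posterior mean TPM column. Folr2, the receptor found on macrophages, had 0.82 and 0.70 TPM from 14 and 17 counts, and 975 bases of its exons overlap the antisense gene Gm10602, which stood at 4.79 and 4.41 TPM. Whether the libraries kept strand is not given in the sources used here, so it is not known if reads of the pair were separated by strand. The deposited posterior SD of the Folr2 count was 0 in both libraries. The part of Gm10602 reads in the Folr2 level was not tested. All 8 macrophage markers reached 1 TPM in both libraries, with a summed level of 76.7 and 75.0 TPM, and their part in the Folr2 level was not tested. The endocytic partners of folate receptors were also low, with Lrp2 (megalin) at 1.09 and 0.84 TPM and Cubn (cubilin) at 0.11 TPM in both libraries. The level of Folr1 was 27.7-fold below that of Slc19a1 (log2 ratio -4.79 ± 0.14, n = 2). With the posterior mean TPM this log2 ratio was -3.49, and with a pseudocount of 1 TPM it was -3.79.

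Ratios between members were taken within each library, so they do not depend on scaling between the libraries. A ratio was called when its log2 had the same sign in the 2 libraries and its mean lay above 1 or below -1. No p-value was computed, since the smallest that an exact permutation test (two-sided) can give for 2 values against 2 is 0.33. Of 22 pairs fixed, 21 gave a ratio, of which 12 were called and 9 were not. The share of other gene pairs past the limit was not computed, so these counts have no background to be set against. The Slc19a1 to Slc46a1 ratio lay almost on the limit, at a log2 of 0.822 in replicate 1 and 1.17 in replicate 2. The mean of 0.998 ± 0.249 lay just below 1 and was not called. The ratio became called at 1.07 with the posterior mean TPM, and fell to 0.54 on the length of the longest coding transcript. Folr1 and Folr2 did not differ by the limit (log2 0.29 ± 0.26), and their order reversed to -0.51 when counts were divided by the length of the longest coding transcript. With the posterior mean TPM the same ratio was 1.60 and was called.

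**Figure D2:**
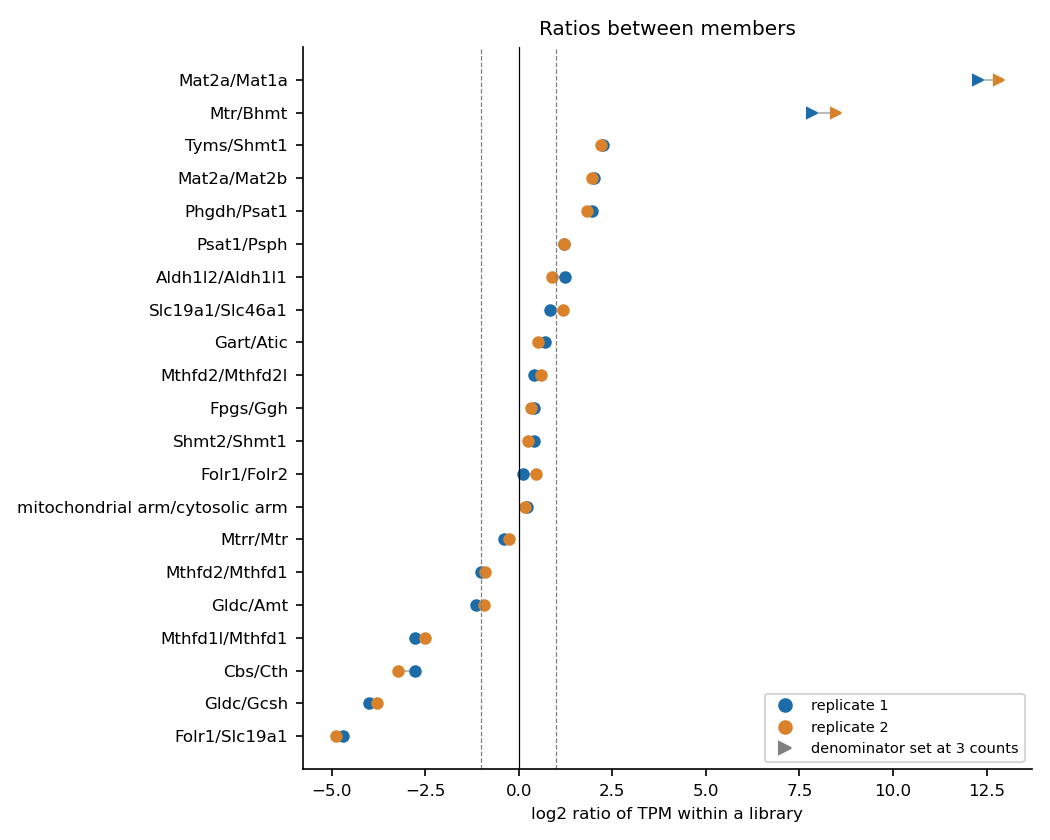
Log2 ratio of TPM for the 21 pairs that gave a ratio, with 1 point per library and dashed lines at -1 and 1; triangles mark ratios whose denominator was set at 3 counts. The arm to arm ratio sits between the dashed lines in both libraries, and Folr1/Slc19a1 is the lowest.

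Fpgs and Ggh act in opposite directions on the glutamate tail that keeps folate in the cell. Fpgs, which adds glutamates, had 26.9 and 25.7 TPM, and Ggh, which removes them, had 20.2 and 20.6 TPM. Fpgs was higher in both libraries, but the ratio stayed inside the limit (log2 0.36 ± 0.07).

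The cytosolic and mitochondrial arms had nearly equal summed levels, and which was higher depended on whether Mthfs was counted. Summed TPM was 120 in both libraries for the 5 mitochondrial members Shmt2, Mthfd2, Mthfd2l, Mthfd1l and Aldh1l2. For the cytosolic members Shmt1, Mthfd1 and Aldh1l1 it was 103 and 106. On these members the mitochondrial sum was 1.15-fold higher (log2 0.20 ± 0.03), within the limit of 1. On the length of the longest coding transcript, chosen after seeing the data, this log2 ratio was 0.36. With Mthfs, which also acts in the cytosol, the cytosolic sum was 125 and 127 TPM, above the mitochondrial sum in both libraries (log2 -0.072 ± 0.010), an alternative added after seeing the data. At the first step, where serine gives its carbon to folate, Shmt2 of the mitochondrion had 58.5 and 56.5 TPM and Shmt1 of the cytosol had 44.5 and 47.3 TPM. Their ratio was 0.33 ± 0.10 on the log2 scale and was not called, although the ranges did not overlap. On the length of the longest coding transcript it was 0.75, still within the limit.

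Within the mitochondrial arm, Shmt2 stood highest and each enzyme of the later steps stood lower in both libraries. Mthfd2 and Mthfd2l are paralogs that oxidise methylenetetrahydrofolate in the mitochondrion. Mthfd2 had 28.7 and 30.6 TPM, Mthfd2l had 21.5 and 20.1 TPM, and their ratio was inside the limit (log2 0.51 ± 0.13). Mthfd1l, which releases formate, had 8.48 and 10.2 TPM. In the cytosol the matching steps are all carried by the single protein Mthfd1, at 57.5 TPM in both libraries (57.49 ± 0.057). Mthfd1l was 6.18-fold below Mthfd1 (log2 -2.63 ± 0.19), a called difference. The Mthfd2 to Mthfd1 ratio was -0.96 ± 0.06 and fell on either side of the limit, at -1.001 in replicate 1 and -0.91 in replicate 2.

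The paired dehydrogenases that burn formyltetrahydrofolate to carbon dioxide were low. Aldh1l1, the cytosolic enzyme and a marker of astrocytes, had 1.08 and 1.29 TPM. Aldh1l2, its mitochondrial paralog, had 2.55 and 2.37 TPM. Aldh1l2 was 2.08-fold higher (log2 1.06 ± 0.26), a call that was lost in replicate 2 alone (0.88) and with the posterior mean TPM (0.69). A stretch of 1056 exon bases of Aldh1l2 is shared with D10Wsu102e on the opposite strand, which stood at 15.7 and 17.2 TPM. The same limit on strand applies to this stretch, and the posterior SD of the Aldh1l2 count was 0 in both libraries. Of the 5 radial glia and astrocyte markers, 3 reached 1 TPM in both libraries, with a summed level of 235 and 186 TPM. Fabp7, a marker of radial glia, made up most of that sum at 162 and 125 TPM, and Slc1a3 had 40.8 and 35.7 TPM. Gfap, an astrocyte marker, was lowest of the 5 at 0.34 and 0.24 TPM. Their part in the levels of Aldh1l1 and Gldc was not tested. Mthfs, which recovers the stored formyl form of folate, had 22.3 and 20.4 TPM. The posterior SD deposited for its count was 3.96% and 3.26% of the count, and 262 of its exon bases are shared with Gm29094 on the same strand.

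The enzymes that spend the carbon on nucleotides were all above 10 TPM. Besides Tyms, Gart, which carries several steps of purine synthesis, had 76.9 and 76.8 TPM. Atic, which completes the purine ring, had 47.5 and 53.4 TPM. Gart was higher in both libraries, with a ratio inside the limit (log2 0.61 ± 0.12). Tyms was 4.68-fold above Shmt1, which supplies its carbon donor in the cytosol (log2 2.23 ± 0.03). On the length of the longest coding transcript the log2 ratio was 1.29, still above the limit. The 4 markers of cycling cells summed to 793 and 818 TPM, with Cdk1, the mitotic kinase, at 306 and 317 TPM. Their part in the Tyms level was not tested.

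The methionine cycle was the role with the widest range, from the top of the list to genes that were not detected. Mat2b, the regulatory partner of Mat2a, had 66.8 and 73.4 TPM, and Mat2a was 3.96-fold higher (log2 1.98 ± 0.05). Mat1a, the liver form of the same enzyme, had 0 counts in replicate 1 and 2 counts in replicate 2. Against the limit of 3 counts, Mat2a was at least 4912-fold higher in replicate 1. In replicate 2 the ratio from 2 counts was 10902-fold, with an exact Poisson 95% interval of 3018 to 90017 that covers counting error in Mat1a only. Ahcy, which removes the inhibitory by-product of methylation, had 62.7 and 69.0 TPM.

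Homocysteine can be turned back into methionine by Mtr, which uses folate and cobalamin, or by Bhmt, which uses betaine. Mtr had 12.9 and 14.2 TPM and its reductase Mtrr had 9.86 and 11.7 TPM, a ratio inside the limit (log2 -0.33 ± 0.08). Bhmt had 0 counts in both libraries, which allows levels of up to 0.057 and 0.040 TPM. Mtr was at least 228-fold above Bhmt in replicate 1 and at least 353-fold above it in replicate 2. Its paralog Bhmt2 had 0 and 2 counts, so no ratio between the pair was formed. Gnmt, a liver enzyme that consumes surplus S-adenosylmethionine, had 0.61 and 0.53 TPM from 10 and 12 counts. In the other direction out of homocysteine, Cbs had 1.86 and 1.33 TPM and Cth had 12.6 and 12.5 TPM. Cbs, which commits homocysteine to cysteine, was 8.0-fold below Cth, the next enzyme (log2 -3.00 ± 0.33). This log2 ratio was -2.26 with the posterior mean TPM and -2.39 with a pseudocount of 1 TPM, and remained called.

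All 3 enzymes of serine synthesis were above 10 TPM, and their order was the same in both libraries. Psat1, the aminotransferase of the middle step, had 59.4 and 62.2 TPM. Psph, the final phosphatase, had 25.5 and 26.9 TPM. In Psph, 452 exon bases are shared with Cct6a on the opposite strand, at 409 and 416 TPM. It is not known if reads of this stretch were separated by strand, and the posterior SD of the Psph count was 0 in both libraries. Phgdh was 3.69-fold above Psat1 (log2 1.88 ± 0.09), and Psat1 was 2.32-fold above Psph (log2 1.21 ± 0.01).

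The proteins of the glycine cleavage system were unequal. This mitochondrial complex breaks glycine down and hands a carbon to folate. Gcsh, at 105 and 103 TPM, was the carrier. Amt, the aminomethyltransferase, had 14.5 and 14.3 TPM, and Gldc, the decarboxylase, had 6.56 and 7.48 TPM. Gldc was 14.9-fold below Gcsh (log2 -3.89 ± 0.15). It was also 2.06-fold below Amt (log2 -1.04 ± 0.14), a call that was lost in replicate 2 alone (-0.94).

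The enzymes that feed carbon from histidine and choline breakdown were low or modest. Ftcd, the liver enzyme of histidine breakdown, had 0.03 and 0.07 TPM from 1 and 5 counts. Sardh, which oxidises sarcosine in the mitochondrion, had 7.95 and 7.56 TPM. Of 9 hepatocyte markers, 4 reached 1 TPM in both libraries and 0 reached 10 TPM, with a summed level of 14.0 and 13.4 TPM. Ttr, a thyroid hormone carrier, was highest at 5.67 and 5.26 TPM, followed by Apoa2 at 3.09 and 2.86 TPM and Afp at 2.54 and 2.62 TPM. Alb, the main liver secretory product, was at 0.32 and 0.54 TPM, and Hnf4a, the hepatocyte factor, at 0.01 and 0.07 TPM. The part of liver-like cells in the Sardh level was not tested.

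Transcript shares added detail that gene levels hide. A single annotated transcript in GENCODE M4 was held by 7 of the 24 members with a mean of 10 TPM or more. The same held for 2218 of 9097 protein-coding genes at that level. Among these 7 members, M21 holds 5 protein-coding transcripts each for Mat2a and Mtrr and 3 for Mthfd1. It holds 2 each for Shmt2 and Mthfd2l and 1 each for Ggh and Mtr. Of the 24 members, 16 had over 90% of their TPM on protein-coding transcripts in both libraries, as did 5436 of the 9097 genes. Tyms was the 1 member with under 50% on protein-coding transcripts in both libraries, where 7.9% of protein-coding genes at that level did so. Its only protein-coding transcript in the tables held 9.31% and 9.01% of Tyms TPM. A short transcript marked for nonsense-mediated decay (797 bases) held 41.5% and 40.3%. A retained-intron transcript (816 bases) held 30.5% and 32.8%, and a longer retained-intron transcript (2045 bases) held 15.0% and 13.2%. Because the coding transcript is 3163 bases long, it took a larger share of expected counts, 23.5% in each library. Dividing all Tyms counts by that length, an alternative chosen after seeing the data, gave 83.6 TPM in place of 215. On that length Tyms lay below Gcsh, at 104 TPM, and was no longer among the 3 highest members. The M21 annotation holds 3 protein-coding Tyms transcripts, against 1 in the tables.

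**Figure D3:**
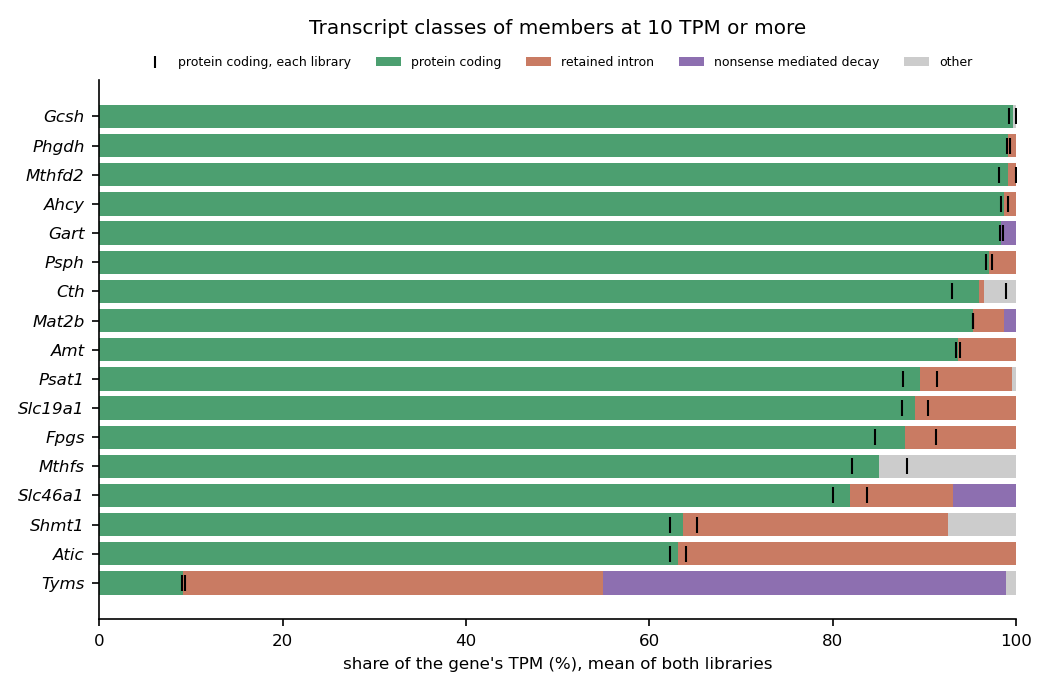
Mean share of each gene's TPM (percent, over both libraries) by annotated transcript class, for members at 10 TPM or more with several transcripts; black ticks give the protein-coding share in each library. Tyms stands alone at the bottom with 9.31% and 9.01% on protein-coding transcripts.

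Other members also split their reads. Shmt1 had 65.2% and 62.2% of its TPM on protein-coding transcripts, and Atic had 64.0% and 62.2%, with most of the rest on retained-intron transcripts in both genes. Gart had a short coding transcript of 1865 bases at 24.1% and 24.8% beside the full transcript of 3518 bases at 74.1% and 73.8%. The short form took 14.1% and 14.6% of Gart expected counts. Mat2b divided between a pair of coding transcripts, with 61.6% and 57.7% on 1 and 33.7% and 37.5% on the other. On the length of the longest coding transcript, Shmt1 stood at 34.2 TPM and Slc19a1 at 17.6 TPM.

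The members differed little between the libraries. The difference was taken as log2(TPM + 1) of replicate 2 minus replicate 1, over genes with a mean of 1 TPM or more. Among 31 members 0 passed a log2 difference of 1 in either direction, where 0.252% of 13477 protein-coding genes did so. Replicate 2 was higher for 18 members and lower for 13, where it was higher for 6892 and lower for 6527 of the 13477 protein-coding genes. The lowest difference was -0.30 for Cbs and the highest was 0.33 for Slc19a1. The median absolute difference was 0.076, close to the 0.083 of all protein-coding genes tested. Each library is 1 pool, so this compares pools, not conditions.

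**Figure D4:**
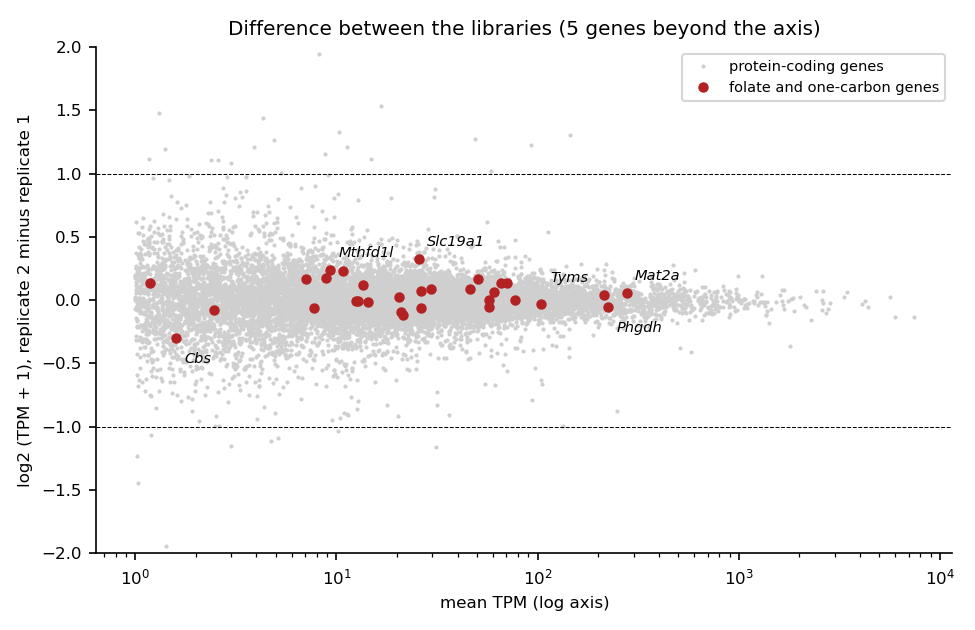
Difference between the libraries (log2(TPM + 1), replicate 2 minus replicate 1) against mean TPM on a log axis, for protein-coding genes with a mean of 1 TPM or more; the members are the larger points. All 31 members lie between -0.30 and 0.33, inside the dashed lines at -1 and 1.

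Genes of connected pathways were measured for comparison, from a list of 74 of which 73 had a match in the tables. Of these 73, 67 reached 1 TPM in both libraries and 59 reached 10 TPM. Among all protein-coding genes the shares were 61.8% and 41.6%, or 75.3% and 50.7% without genes at 0 TPM. The median of the 73 genes was 36.5 TPM, against 5.22 TPM for all protein-coding genes. All 6 deoxynucleotide genes and all 8 other purine genes were above 10 TPM. Rrm2, a subunit of ribonucleotide reductase, had 239 and 253 TPM, Dtymk, the thymidylate kinase, had 229 and 224 TPM, and Dctd was lowest of that list at 30.3 and 29.5 TPM. In the purine pathway Paics had 248 and 255 TPM, Impdh2 had 172 and 173 TPM, and Ppat, the committing step, was lowest with 22.2 and 24.6 TPM. Tyms itself lay below Rrm2 and Dtymk in both libraries.

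Downstream of S-adenosylmethionine, all 9 genes of methionine salvage and polyamine synthesis were above 10 TPM. Odc1, which makes putrescine, had 186 and 189 TPM, Srm, the spermidine synthase, had 174 and 170 TPM, and Enoph1 was lowest at 36.5 and 35.9 TPM. Of the 7 methyl users matched, the DNA methyltransferases Dnmt3a, at 177 and 184 TPM, and Dnmt1, at 87.3 and 90.8 TPM, were highest. Dnmt3b had 12.5 and 12.4 TPM. Prmt1 was also on this list but had no match, so its place in the order is not known. Pemt, which methylates phosphatidylethanolamine and is most active in liver, was lowest at 3.99 and 3.28 TPM. Adk, which clears adenosine made by Ahcy, had 95.9 and 98.4 TPM, Ahcyl1 had 90.9 and 98.5 TPM and Ahcyl2 had 9.97 and 10.9 TPM.

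Cobalamin, the cofactor of Mtr, is handled by proteins of which 8 genes were listed, and all 8 reached 1 TPM and 6 reached 10 TPM. Mmadhc, which directs cobalamin to its enzymes, had 133 and 134 TPM, Cd320, the transcobalamin receptor, had 64.5 and 61.1 TPM, and Abcd4, the lysosomal exporter, was lowest at 9.08 and 9.34 TPM. All 11 genes of serine and glycine transport and mitochondrial use were above 10 TPM. They were led by Dld, the shared dehydrogenase subunit of glycine cleavage, at 133 and 139 TPM. Sfxn1, the mitochondrial serine carrier, followed at 52.8 and 53.2 TPM, and Slc6a9, a glycine transporter, was lowest at 13.1 and 11.7 TPM.

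Choline and betaine genes divided. Aldh7a1 had 81.7 and 85.0 TPM and Chka, the choline kinase, had 57.1 and 53.0 TPM, while Chdh, which makes the betaine precursor from choline, had 0.10 and 0.06 TPM and was named after its values were seen. Dmgdh, which follows Bhmt, was lowest at 0.04 and 0.09 TPM. In the glutathione list Cdo1, which oxidises cysteine, had 120 and 124 TPM, Gclm had 33.3 and 34.0 TPM, and Gclc was lowest at 14.7 and 14.8 TPM. Among regulators of the enzymes, Atf4, which controls amino acid synthesis genes, had 85.0 and 94.8 TPM, Mycn had 59.8 and 60.8 TPM, and Chac1 was lowest at 0.86 and 0.66 TPM.

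**Figure D5:**
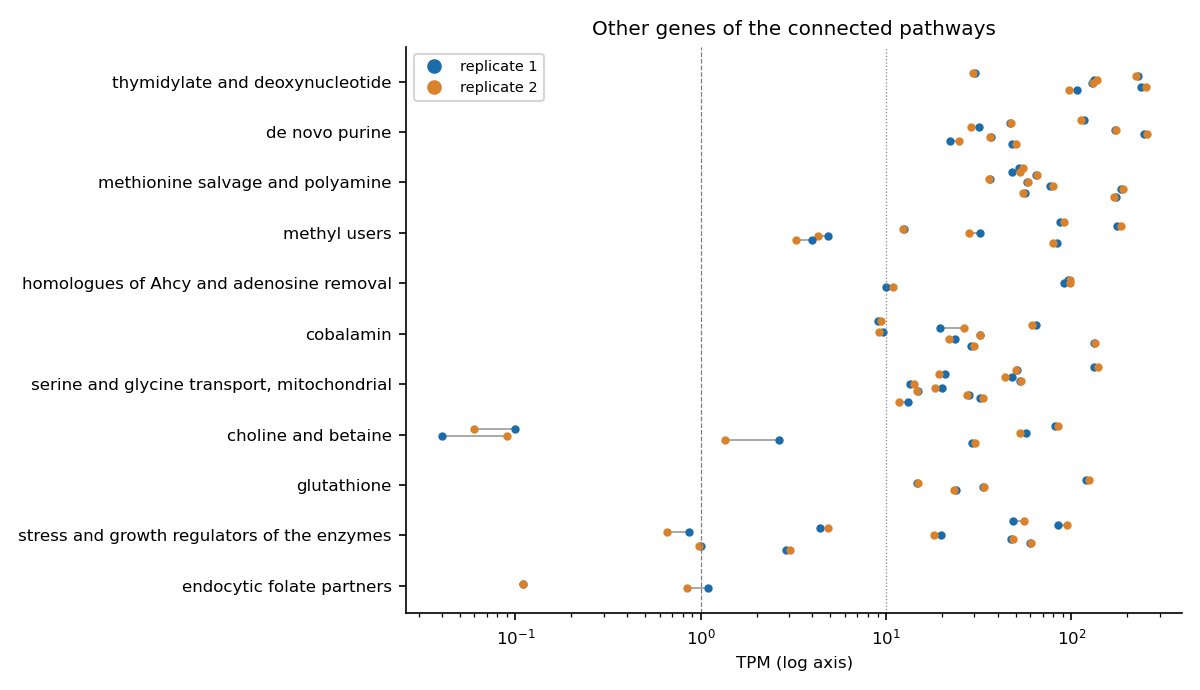
Level of 73 other pathway genes in TPM on a log axis, by list, with 1 point per library joined by a line, and vertical lines at 1 and 10 TPM. Deoxynucleotide, purine and polyamine genes lie to the right of 10 TPM, while Chdh, Dmgdh and Cubn lie at 0.11 TPM or less.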

How the data were processed

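Total RNA-seq of 2 pooled samples of 1 group was used, and there is no contrast between conditions. Expected counts, per the file headers, are estimated reads per gene or transcript. The deposited TPM values divide counts by effective length and scale them to a fixed total that includes the ERCC spike-ins. Spike-ins held 6.88% and 7.57% of TPM. Reads were aligned to mm10 with GENCODE M4, per the deposited notes. RSEM uses the same column names. The aligner, the quantifier and any ribosomal depletion are not given in the sources used. Per its title, the series has been replaced by another, so these tables are an older deposit. Names, types and coordinates came from GENCODE M21 (GRCm38), and promoters from the RefSeq table, which matched 32 of the 38 members.

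Levels, within-library ratios, transcript shares and library differences (pseudocount 1 TPM) were computed with Python 3.11.15, pandas 2.3.3, numpy 2.4.6 and scipy 1.17.1, and figures with matplotlib 3.10.9. The rule for genes past the difference limit was run on simulated counts with sampling noise only. That run took genes at 10 TPM or more and does not bear on the share reported here. TMM factors from edgeR 4.0.16 in R 4.3.3 served as an alternative scaling. A member under 3 expected counts in both libraries was taken as not detected. Named were all 38 members, the highest-share transcripts, and the 2 highest and the lowest gene of each other list. Chdh and Dnmt3b were named outside this rule. Marker genes and promoters were picked after their values were seen. Members, pairs and lists were chosen with earlier results of these data known. Alternatives covered the TPM column, spike-ins, length, minimums, pseudocounts, the set of background genes and each library alone.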

Additional observations from a re-analysis of the deposited data

How the results depend on the processing

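The median level of the members, 17.4 TPM, moved by more than the spread between the libraries to 17.1 with the posterior mean TPM, 18.8 without spike-ins, 18.2 on full gene lengths and 15.7 on the longest coding length, and ranged from 17.2 to 17.3 in a single library. Of 127 alternative ratios, 114 kept direction and call, and 15 of 21 ratios did so under every alternative tried. The Aldh1l2/Aldh1l1 ratio lost its call at 0.69 with the posterior mean TPM and 0.66 with a pseudocount of 1 TPM, and gave 0.88 and 1.24 in single libraries. The Gldc/Amt ratio lost its call at -0.94 with that pseudocount and -0.97 on the longest coding length, and gave -1.14 and -0.94 in single libraries. Folr1/Folr2 became called at 1.60 with the posterior mean TPM and reversed to -0.51 on the longest coding length. Slc19a1/Slc46a1 became called at 1.07 with the posterior mean TPM and 1.003 on full lengths. The same ratio fell to 0.54 on the longest coding length, and gave 0.82 and 1.17 in single libraries. Mthfd2/Mthfd1 gave -1.001 and -0.91 in single libraries. The cause was not tested. The ratio of the mitochondrial to the cytosolic arm reversed to -0.072 with Mthfs counted in the cytosolic arm, and was 0.36 on the longest coding length. Shmt2/Shmt1 was 0.75 on that length. The Mthfs setting and the longest coding length were chosen after seeing the data. No member passed the library difference limit under any scaling or minimum tried. No paired analysis was possible because the series holds a single group. Depth limits Folr1, Folr2, Gnmt, Ftcd, Mat1a, Bhmt and Bhmt2, which had at most 18 expected counts in a library.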
